A study of Homo sapiens with 2 samples.

Results

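Among the 10487 piRNA database entries counted in the small RNA library of U87MG cells, 11 formed a group labelled as pieces of tRNA-Lys-CTT, a lysine tRNA. They were chosen by their listed sequence: each had a run of 18 or more consecutive bases in common with piR-35412, which is itself included, and piR-35412 had been selected on its read count, the eighth highest of all entries. U87MG is an established human glioblastoma cell line, and glioblastoma is a malignant brain tumour of glial cells. Per the labels, the cells were untreated and kept in MEM with 10% FBS and 1% antibiotics, and gave 1 library for small RNA and 1 for mRNA. There was no replicate, no other cell type and no control, so the values below describe 1 library and no test between conditions was possible. The labels give no passage or stock of the line, and an established line lacks the other cells of a tumour. In the mRNA library GFAP, the filament protein of astrocytes, was at 0.331 FPKM and the glial S100B had no row, while vimentin (VIM), also made by many other cells, was at 2420 FPKM. The small RNA library held 27299683 piRNA reads and 11785001 miRNA reads, which sets a narrow counting error for all but the lowest entries. Intervals are exact 95% intervals (Poisson for a count, Clopper-Pearson for a share). They cover counting error only, because PCR copies of a molecule could not be recognised.

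tRNAs carry amino acids to the ribosome and fold into an acceptor stem and 3 stem-loops, of which the D arm and the anticodon arm come first from the 5′ end. Cutting within the anticodon loop, for which angiogenin is the best known enzyme, leaves a 5′ piece and a 3′ piece. piRNAs are small RNAs bound by PIWI proteins, mainly in the germ line, where they silence transposons. Primary piRNAs mostly begin with U, and secondary ones often have A at base 10. Databases of piRNAs also list sequences that are identical to pieces of tRNA, and reads from tRNA are then counted under piRNA names.

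The 7 entries that contain catga are shown first because they held nearly all of the reads. Sequences are given as listed by the authors, 5′ to 3′, in DNA letters. Capitals mark bases that differ from piR-35412 or lie outside it.
piR-35412: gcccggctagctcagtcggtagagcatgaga
piR-35413: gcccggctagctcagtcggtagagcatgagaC
piR-35414: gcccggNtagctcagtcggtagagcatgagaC
piR-33468: cggctagctcagtcggtagagcatgagaCT
piR-43604: Tcccggctagctcagtcggtagagcatga
piR-31103: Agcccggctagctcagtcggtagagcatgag
piR-31104: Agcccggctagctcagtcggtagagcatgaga

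The other 4 entries began with gcctgg and are shown because they shared the middle of piR-35412 exactly but had substitutions outside it. Capitals have the same meaning.
piR-35466: gccTggGtagctcagtcggtagagca
piR-35467: gccTggGtagctcagtcggtagagcatCag
piR-35468: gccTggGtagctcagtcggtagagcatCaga
piR-35469: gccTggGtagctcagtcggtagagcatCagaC

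Together the 11 entries had 720262 reads (718600 to 721927), or 2.64% of the piRNA reads (2.63 to 2.64%). For each 100 miRNA reads there were 6.11 reads of this group. All 11 had at least 10 reads, against 12.7% of all entries, and 7 had at least 1000 reads, as did 162 of all 10487 entries. Their median of 3520 reads stands beside a median of 2 reads over all entries. Since the group was built around an abundant entry, its high level is a description and not a finding.

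Most of the reads were listed under the entry that defined the group. piR-35412, of 31 bases, had 438103 reads, 60.8% of the group (60.7 to 60.9%). piR-35413, which is the same sequence with 1 more base at the 3′ end, followed with 158206 reads, 21.97% of the group (21.9 to 22.1%). piR-35414 had 63597 reads or 8.83% (8.76 to 8.90%). These 3 entries held 91.6% of the group's reads. piR-33468, which starts 3 bases further in, had 30201 reads or 4.19% (4.15 to 4.24%), and piR-43604 had 23512 reads or 3.26% (3.22 to 3.31%). The 4 gcctgg entries had 3520 reads (piR-35469), 2227 reads (piR-35467), 459 reads (piR-35468) and 308 reads (piR-35466). The lowest were piR-31103 with 67 reads (51.9 to 85.1) and piR-31104 with 62 reads (47.5 to 79.5). The intervals of neighbouring counts in this order did not overlap except for this last pair.

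The starts were nearly uniform. Positions are counted from 1 at the first base of piR-35412. Entries that start at position 1 held 689932 reads, 95.8% of the group (95.7 to 95.8%), in 8 of the 11 entries. The single entry that starts 3 bases downstream was piR-33468, with its 4.19%. The 2 entries that start 1 base upstream, with an extra A, held 129 reads or 0.0179% (0.0150 to 0.0213%). The plainest comparison is between piR-35412 and piR-31104, which differ only by that A: there were 7066 reads without it for each read with it. Elsewhere in the file 4 other pairs of entries differ by 1 base at the 5′ end, and only 1 of them had at least 100 reads together, with 198 reads for the longer entry (piR-30105) and 426 for the shorter (piR-30318).

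Lengths and last bases were less uniform than starts. The read-weighted mean length was 31.2 bases ± 0.68 (SD over reads), within a range of 26 to 32. Entries of 31 bases held 60.9% of the group's reads (60.8 to 61.0%) and those of 32 bases 31.3% (31.2 to 31.4%). Entries of 30 bases held 4.50%, the single entry of 29 bases 3.26% and the single entry of 26 bases 0.0428%. Over the whole file, entries of 31 bases held 81.4% of the reads and entries of 32 bases 2.59%. Most of these 31-base reads came from the 2 larger tRNA groups described below. Of 22235010 such reads, 14449795 were of the tRNA-Glu group and 5611402 of the tRNA-Gly group. The whole-file share at 31 bases therefore mainly describes those 2 groups. Of 708368 reads in entries of 32 bases, 1518 were of the tRNA-Glu group, 258783 of the tRNA-Gly group and 225385 of the tRNA-Lys group itself. By last base, entries ending at position 31 held 60.9% of the group's reads, at position 32 31.3% and at position 33 4.19%. The file gives a count for each listed sequence and not the sequence of each read, and no entry in it is longer than 33 bases. Starts and ends are therefore those of the listed entries, and longer fragments have no entry of their own.

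The last bases can be set against the fold of the tRNA with the help of one entry outside the group. piR-39018 overlapped piR-33468 by 14 bases and carried the sequence on to position 51. It shared only 12 bases in a row with piR-35412 and so was not a member. It is shown because it runs across the anticodon that the members stop short of, and capitals mark the letters CTT.
piR-39018: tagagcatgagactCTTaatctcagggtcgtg

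The letters CTT occurred once in the joined sequence, at positions 34 to 36. A search for perfect stems of at least 4 base pairs in the joined 51 bases found 3 that were not inside a longer one. Among them, positions 10 to 13 paired with 22 to 25 around a loop of 8 bases, which matches the D arm of a tRNA. Positions 27 to 31 paired with 39 to 43 around a loop of 7 bases with CTT at its centre, which matches an anticodon arm. The third, positions 21 to 24 with 32 to 35, would use bases of the D stem and of the anticodon loop and is no part of the cloverleaf. The D stem is shown on piR-35412, with both strands in capitals, because all 11 members carried it whole. The shared run that chose each member covers both strands, so this is no independent property.
piR-35412: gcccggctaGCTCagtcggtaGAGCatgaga

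On this fold, entries ending at the end of the anticodon stem's first strand or just inside the loop held 96.4% of the reads. The other 4 of the 11 entries ended earlier. The fold was built from catga entries and piR-39018, so the gcctgg entries, with 0.904% of the reads, are placed on it by position only. Where they reach position 28, inside the stem, they have another base. Entries ending at position 31, the last base of the first strand, held 438624 reads (60.9%). Entries ending at positions 32 and 33, the loop bases before CTT, held 255524 reads, 35.5% of the group (35.4 to 35.6%). Only 3.63% of the reads (3.58 to 3.67%) were in entries that ended earlier, most of them in piR-43604. No member reached position 34, the first base of the CTT, and the end of piR-33468 lay directly before the CTT. Because no listed entry is longer than 33 bases, the 8 members starting at position 1, with 95.8% of the reads, could not reach it. For them this outcome was set by the listing. piR-39018, which spans it, had 2444 reads (2348 to 2543), so that the group had 295 reads for each read of that entry. Nothing here shows whether single molecules were cut at these positions, because the library was counted against listed sequences only.

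The label of the group, tRNA-Lys-CTT, could be checked for the catga entries only through piR-39018, which matches them where they overlap and carries CTT in the loop. No tRNA sequence was in the sources used here to check it further. RefSeq (GRCh38) lists 14 tRNA genes with names of tRNA-Lys-CTT and 13 with names of tRNA-Lys-TTT, besides 4 and 5 pseudogenes. Reads of identical gene copies cannot be told apart, and no coordinates are given because the files have none and name another build. For the gcctgg entries the label could not be checked. They end by position 32, before the place of CTT in the joined sequence. From piR-35412 they differed at positions 4 and 7 (C4T, C7G) and, where they reach that far, at position 28 (G28C). The base of piR-35412 comes first in these labels. No entry in the file continued them past position 32.

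The catga entries had 713748 reads and the gcctgg entries 6514, which was 0.904% of the group (0.883 to 0.927%), or 110 catga reads for each gcctgg read. The 2 kinds also differed in the lengths that held their reads. Of the reads in piR-35412 and piR-35413, 73.5% (73.4 to 73.6%) were in the entry of 31 bases. Of the reads in piR-35468 and piR-35469, which have the same start and the same lengths, 11.5% (10.6 to 12.6%) were. The order was therefore opposite: 2.77 reads at 31 bases for each at 32 in the catga pair, and 7.67 reads at 32 bases for each at 31 in the gcctgg pair. With piR-35414 added to the 32-base side, the catga share at 31 bases was 66.4% (66.3 to 66.5%). The intervals are far apart, but both pairs come from 1 library and the spread between libraries is unknown. In the gcctgg ladder, 54.0% of the reads were at 32 bases, 34.2% at 30, 7.05% at 31 and 4.73% at 26, so that the entry of 31 bases lay below both its neighbours. The ladder leaves out piR-35463, another entry of 31 bases that begins with gcctgg, which had 2693 reads and is described below. That entry differs from piR-35468 at positions 7 and 17 and is not a member.

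Ladders of this kind varied widely over the file. There were 41 pairs of entries in which one is the other with 1 more base at the 3′ end, and 19 of them had at least 100 reads together. The longer entry held a median of 27.1% of the pair's reads, from 0.111% to 88.5%, and had more reads than the shorter in 6 of the 19. The pair of piR-35412 and piR-35413 stood near the middle, with 26.5% in the longer entry, and the pair of piR-35468 and piR-35469 was the highest of the 19. The 2 entries with the extra A were nearly equal, with 48.1% in the longer (39.2 to 57.0%). Reads of nested entries can belong to either, and the rule by which the authors shared them out is not given in the sources used here.

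In a pair of members a base near the 5′ end was changed or undetermined, and both also differed from piR-35412 in length. piR-43604 had T in place of the first G (G1T) and ended at position 29. It was the only member that began with T, the DNA letter for U. The same 29 bases with the first G were not among the members. For each read of piR-43604 there were 18.6 of piR-35412, which is also longer, at 31 bases. piR-35414 had an undetermined base at position 7 (C7N) and was otherwise identical to piR-35413. Of the reads of these 2 entries, 28.7% (28.5 to 28.9%) were listed under the one with the undetermined base. A read of piR-35413 fits piR-35414 at every known base, so the listed sequences do not separate them. The group total without piR-35414 changes by its 8.83%.

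The bases that mark piRNAs were rare among the reads of the members. The share of group reads in entries beginning with T was 3.26%, all of it piR-43604, against 59.4% over all entries. Most of the latter were reads of the tRNA-Glu group described below, and without that group the share over the remaining entries was 13.9%. Of the members, 7 began with G and held 92.5% of the reads. The share beginning with G was 31.4% over all entries and 91.0% in the tRNA-Gly group, also described below. A at base 10 occurred in 2 members, the low piR-31103 and piR-31104, where the extra first base moves an A to that place. These held 0.0179% of the reads against 5.88% over all entries. In the tRNA-Glu and tRNA-Gly groups no entry had A at base 10. The read-weighted GC content was 61.1%, against 53.9% over all entries. The latter also largely reflects the tRNA-Glu group (54.9% GC, 53.4% of the piRNA reads) and the tRNA-Gly group (51.3% GC, 22.7% of the piRNA reads).

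All 11 members held the A box, the first part of the internal promoter that RNA polymerase III uses at tRNA genes, at positions 8 to 19. It was searched by its consensus on the listed strand. In the whole file 22 entries matched this form (0.210%), of which these were 11, and they carried 99.2% of the reads of the matching entries. In the tRNA-Glu and tRNA-Gly groups described below, 0 entries matched. Looser forms of the A box were not searched, so these counts do not show that other tRNA entries lack one. The shared run that chose the members covers these positions, so this is no independent property. The match is one of letters and says nothing about the use of the promoter.

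The threshold of 18 bases lay in a wide gap. The 4 members closest to it were the gcctgg entries, with shared runs of 19 bases (piR-35466) and 20 bases (piR-35467, piR-35468 and piR-35469). No entry had a run of 13 to 18 bases. The closest outside was piR-39018 with 12, followed by entries with 10, among them piR-36248 with 8216 reads, piR-36251 with 5655, piR-36249 with 4167 and piR-36246 with 2735. No miRNA of the 1224 listed shared more than 10 bases in a row with piR-35412, and no piRNA entry shared more than 11 with its reverse complement.

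The 2 tRNA groups with the most reads were larger and more concentrated. They were formed by the same rule around piR-60565 (tRNA-Glu) and piR-35982 (tRNA-Gly). The sequence of piR-35982 is shown for comparison of its length and start, with no capitals.
piR-35982: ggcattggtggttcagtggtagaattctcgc

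The tRNA-Glu group had 8 entries and 20.2 times the reads of the tRNA-Lys group, and the tRNA-Gly group had 10 entries and 8.59 times the reads. Their leading entries, both of 31 bases like piR-35412, held 89.9% (89.8 to 89.9%) and 86.6% (86.6 to 86.6%) of their group, against 60.8% for piR-35412. The next entries were piR-43771 (9.34%) and piR-33065 (0.618%) for tRNA-Glu, and piR-35284 (4.44%) and piR-61648 (4.18%) for tRNA-Gly. Counted by their evenness, as the inverse of the sum of squared shares, the reads of the tRNA-Lys group corresponded to 2.33 equal entries, those of tRNA-Glu to 1.23 and those of tRNA-Gly to 1.32. The tRNA-Lys value counts piR-35413 and piR-35414 apart, though their listed sequences do not separate them, and includes the gcctgg entries.

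The groups differed in where the spread lay. Entries of 32 bases held 31.3% of the tRNA-Lys reads, but 0.0104% (0.00990 to 0.0110%) of the tRNA-Glu reads and 4.18% (4.17 to 4.20%) of the tRNA-Gly reads. Entries that start with their leading entry held 95.8% of the tRNA-Lys reads, 89.9% of the tRNA-Glu reads and 86.6% of the tRNA-Gly reads. By these shares, the tRNA-Lys reads were the most alike in start position and the least alike in length of the 3 groups. These shares rest on which sequences are listed. The file has 4 entries of 32 bases for tRNA-Lys and 1 each for the others. Entries with the leading start number 8 of 11 for tRNA-Lys, 1 of 8 for tRNA-Glu and 3 of 10 for tRNA-Gly. How far this listing sets the shares was not tested. First bases set the tRNA-Glu group apart from the other 2. T began 99.2% of the tRNA-Glu reads, 4.26% of the tRNA-Gly reads and 3.26% of the tRNA-Lys reads. G began 0% of the tRNA-Glu reads, 91.0% of the tRNA-Gly reads and 92.5% of the tRNA-Lys reads.

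Genes that make, charge, modify and cut tRNA were present in the mRNA library. Their values are in FPKM, which divides fragments by the length of the gene and the size of the library. Of 53 such genes and PIWI genes listed for this purpose, 49 had a row and 47 of these (95.9%) were at 1 FPKM or more, against 64.6% of all 21445 genes and 77.5% of coding genes. The list had a median of 10.6 FPKM, all genes 2.96 and coding genes 7.82. KARS1, the lysyl-tRNA synthetase that loads lysine onto these tRNAs, was at 69.0 FPKM and is listed under its older symbol KARS.

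Enzymes that can cut tRNA or hold such cuts in check were all at 1 FPKM or more, 7 of 7. RNH1, the inhibitor that binds angiogenin and other RNases of its family, was highest at 118. ANG, angiogenin, was at 3.14 and RNASE4, a related secreted RNase, at 10.6. ANG and RNASE4 overlap in the genome, so that their shares of the fragments are uncertain. DICER1, the RNase of miRNA maturation, was at 19.3, and SLFN11 and SLFN13, RNases that cleave tRNA, were at 9.96 and 2.03. RNH1 thus stood 37.6 times as high as ANG. The level of an mRNA does not give the activity of the enzyme.

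Processing and transcription genes were expressed over a wide range. Of 13 genes for trimming the ends of tRNA, 12 had a row and all 12 were at 1 FPKM or more. ELAC2, which cuts the 3′ end, was at 23.0 and ELAC1 at 1.46. Subunits of RNase P, which cuts the 5′ end, ran from POP4 (51.5) and POP5 (20.4) through POP7 (15.2), RPP14 (15.1), RPP30 (10.8), RPP40 (8.79), POP1 (7.66) and RPP38 (6.35) to RPP25 (1.92), and RPP21 had no row. The RNA of RNase P, RPPH1, was at 71430, under an identifier typed as antisense in the file. FPKM of so short an RNA depends on the length rule used. TRNT1, which adds the CCA end, was at 15.4. Of 19 genes for RNA polymerase III and its factors, 18 had a row, and all 18 were at 1 FPKM or more. MAF1, the repressor of the polymerase, was highest at 31.6. Subunits of TFIIIC, which binds the promoter inside the tRNA gene, were GTF3C5 (26.1), GTF3C3 (23.0), GTF3C6 (19.4), GTF3C1 (19.1), GTF3C4 (12.4) and GTF3C2 (9.07). The TFIIIB subunits BRF1 and BRF2 were at 12.8 and 5.38. Subunits of the polymerase itself included POLR3D (13.3), POLR3E (10.9), POLR3A (7.72), POLR3F (6.07), POLR3C (4.52), POLR3G (4.47), POLR3K (1.83) and POLR3B (1.10). BDP1 had no row, which is not by itself a lack of expression.

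Enzymes that modify tRNA were at 1 FPKM or more in 8 of 8 cases, led by NSUN2 (32.6), which methylates cytosines in tRNA, and TRMT6 (11.8) and TRMT61A (10.9), the 2 subunits of an adenosine methyltransferase. DUS2, which makes dihydrouridine in the D loop, was at 8.34. METTL1 and WDR4, the pair that methylates guanosine, were at 8.16 and 5.82. The lowest were TRDMT1 (2.78), another cytosine methyltransferase, and TRMT10A (2.34). Of the 4 PIWI genes, only PIWIL2 (0.109) and PIWIL4 (0.0775) had a row, while PIWIL1 and PIWIL3 were not listed. Both PIWI genes with a row were thus below 1 FPKM.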

How the data were processed

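Read counts for each piRNA database entry and each mature miRNA were deposited by the authors, without normalization, together with the listed sequences, per the file headers. FPKM values for each gene were deposited by the authors, per the file headers. The submitters' processing notes name cutadapt and the builds hg19 and GRCh37. Which aligner and counting program were used, how reads that fit several entries were shared out, and which program gave FPKM is not given in the sources used here.

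Each listed sequence was compared with that of piR-35412, and entries sharing 18 or more bases in a row were kept; an undetermined base matched nothing. The start offset came from the longest shared run. The same rule formed the groups compared, and the comparison code was tested on sequences with planted runs. Exact Poisson and Clopper-Pearson 95% intervals were computed with scipy 1.17.1 in Python 3.11.15. With 1 library of each kind no test was made. All members were named, with the entries nearest the threshold, the 3 leading entries of each compared group and the genes of a tRNA list. A few items that this rule names, though counted in the lists, are not reported here. piR-39018, the stem search and the pairs of entries were chosen after values were seen. The members and lists were chosen with earlier results of these data known. Genes were matched by identifier, then symbol; of 2 identifiers listed as RPP14, the one that the gene name table gives that name was used.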

Additional observations from a re-analysis of the deposited data

How the results depend on the processing

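Of 22 alternatives, 12 gave values within the counting interval, within 1.5 times for counts of entries or within 1 SD for lengths, and 10 did not. The group kept 11 entries with 16 shared bases required, with the reverse complement added or with at least 10 reads required, 10 entries with 20 shared bases, and 13 with 1 mismatch allowed. With 24 shared bases it had 7 entries and 713748 reads, without the gcctgg entries, and piR-35412 held 61.4% of them. With 1 mismatch it had 725690 reads. The group's share was 1.84% of piRNA and miRNA reads together and 5.07% of the piRNA reads without piR-60565, since the denominators differ. The share starting at position 1 was 72.7% with each entry counted once and 89.3% without piR-35412. The share of reads in entries ending at position 31 or later was 96.4%; it was 90.7% without piR-35412 and 96.0% without piR-35414, both alternatives chosen after seeing the data. Depth limits little here except for the entries with 62 and 67 reads; the missing replicate limits every value.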

Other observations

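Allowing 1 mismatch added 2 entries that start at position 1 and match piR-35412 over an inner stretch of 20 bases, except at position 17. Their longest exact run was 10 bases. They are shown because they carry the middle of the fragment, apart from that position, with further substitutions outside it. Capitals mark bases that differ from piR-35412.
piR-35463: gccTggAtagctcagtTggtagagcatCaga
piR-36246: gGGGgTAtagctcagtGggtagagcat

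piR-35463 had 2693 reads (2592 to 2797) and piR-36246 had 2735 (2633 to 2839), 0.374% and 0.380% of the reads of the tRNA-Lys group. Their intervals overlap. piR-35463 shared C4T and G28C with the gcctgg entries of its length and differed from them at position 7 (C7A, where they have C7G) and position 17 (C17T, where they have the base of piR-35412). It had 31 bases like piR-35468, which had 459 reads.

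Undetermined bases were rare in the file, and 1 entry held nearly all of their reads. Of 10487 entries 115 contained an N, with 65667 reads together, and piR-35414 held 96.8% of these. The other 114 had a median of 2 reads and at most 1446. In 5 cases an entry with N had a partner identical at all known bases. The entry with N held 28.7% of the reads in the pair of piR-35414 and piR-35413, but 1.22% (0.789 to 1.79%) for piR-36244, 0.627% (0.204 to 1.46%) for piR-36229 and 1.67% (0.202 to 5.89%) for piR-36258. For piR-31452 it held 2 of 7 reads, too few to place. The pairs of piR-36244, piR-36229 and piR-36258 had 2055, 797 and 120 reads, against 221803 for the pair of piR-35414. Why piR-35414 differs from these 3 entries was not tested.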
